A study of Mus musculus with 8 samples.

Results

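The p53 and Gadd45 growth-arrest genes were followed in livers after ischemia and reperfusion (I/R). The 10 genes were chosen by name, with earlier results of these data known. They comprised Gadd45a, Gadd45b, Gadd45g, Cdkn1a, Ccng1, Trp53, Mdm2, Phlda3, Zmat3 and Trp53inp1. All 10 were found among the 54532 genes of the deposited table, and all 10 were among the 16645 genes tested. RNA sequencing was performed on the liver of 4 mice termed METTL3-HKD and of 4 termed METTL3-Flox, and every liver had 1 h of ischemia and 6 h of reperfusion. METTL3, a subunit of the enzyme that places N6-methyladenosine (m6A) on mRNA, was targeted in METTL3-HKD mice, whose genotype was METTL3 flox/-; Alb-iCre and which the study describes as heterozygous, since mice with full loss in hepatocytes died. The albumin promoter that drives this Cre recombinase is active in hepatocytes, and other cell types of the liver were not meant to be targeted. METTL3-Flox mice were littermates with METTL3 flox/flox and no stated Cre, and a Cre effect and the loss of METTL3 therefore cannot be told apart. The age and sex of these 8 mice were not given in the sources used here, and sham-operated livers were not analysed here.

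p53, encoded by Trp53, is a transcription factor that is held at a low level by the ubiquitin ligase Mdm2 and accumulates after DNA damage and other stresses. It then activates genes that halt the cell cycle, repair DNA or start cell death, and it also activates Mdm2, which closes a negative feedback loop. The Gadd45 genes encode small acidic proteins without enzyme activity that bind cell cycle regulators and the kinase MAP3K4 upstream of p38 and JNK. Gadd45a is a classical p53 target that is also induced without p53, whereas Gadd45b and Gadd45g respond mainly to cytokines and other stress signals.

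Promoter sequences are shown for the 3 Gadd45 genes, which differed in response, and for the upstream start of Cdkn1a and for Ccng1, whose windows held a p53 response element. Each run gives the 250 bases before the first base of a RefSeq transcript (GRCm38.p6), 5′ to 3′ on the strand of the gene, and 8 of the 10 genes had such a sequence. Capitals mark matches on either strand to the TATA box (TATAAA), the CCAAT box (CCAAT), the GC box (GGGCGG), the E-box (CACGTG), the octamer (ATTTGCAT) and the p53 response element. AP-1 sites (TGANTCA), cyclic AMP response elements (TGACGTCA) and the κB site were searched as well. The motifs and the mismatch allowed in the p53 element were chosen after these sequences had been seen. The regions were chr6:67037408-67037657 (minus strand) for Gadd45a, chr10:80929841-80930090 (plus) for Gadd45b, chr13:51846425-51846674 (plus) for Gadd45g, chr17:29090729-29090978 (plus) for the upstream start of Cdkn1a and chr11:40755287-40755536 (minus) for Ccng1.
Gadd45a: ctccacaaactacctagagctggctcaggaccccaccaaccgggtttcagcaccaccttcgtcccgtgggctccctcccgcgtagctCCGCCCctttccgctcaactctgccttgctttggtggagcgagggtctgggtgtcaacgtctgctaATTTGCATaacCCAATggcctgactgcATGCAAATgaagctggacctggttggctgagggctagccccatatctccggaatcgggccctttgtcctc
Gadd45b: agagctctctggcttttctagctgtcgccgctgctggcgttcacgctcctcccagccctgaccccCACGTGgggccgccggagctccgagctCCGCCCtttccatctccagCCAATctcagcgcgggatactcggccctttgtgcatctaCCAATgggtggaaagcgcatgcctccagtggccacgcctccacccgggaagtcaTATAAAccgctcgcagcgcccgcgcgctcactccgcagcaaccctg
Gadd45g: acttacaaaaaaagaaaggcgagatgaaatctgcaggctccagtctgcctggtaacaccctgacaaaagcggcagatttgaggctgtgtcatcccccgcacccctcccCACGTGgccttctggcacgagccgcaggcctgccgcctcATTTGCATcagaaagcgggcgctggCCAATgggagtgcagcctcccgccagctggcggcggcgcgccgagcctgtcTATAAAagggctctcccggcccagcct
Cdkn1a: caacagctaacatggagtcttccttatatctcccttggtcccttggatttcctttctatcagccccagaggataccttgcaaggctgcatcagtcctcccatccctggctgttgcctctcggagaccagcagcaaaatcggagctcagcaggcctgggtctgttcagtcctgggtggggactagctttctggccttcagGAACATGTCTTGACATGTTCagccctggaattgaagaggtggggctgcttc
Ccng1: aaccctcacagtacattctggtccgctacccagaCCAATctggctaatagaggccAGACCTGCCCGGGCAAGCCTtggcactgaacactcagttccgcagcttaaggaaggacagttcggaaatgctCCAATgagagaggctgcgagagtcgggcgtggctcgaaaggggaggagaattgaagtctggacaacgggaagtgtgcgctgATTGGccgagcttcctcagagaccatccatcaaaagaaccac
The p53 response element was searched as 2 adjoining half-sites of 10 bases each with at most 1 mismatch outside their fixed C and G. It was found in 19 of the 32851 promoter windows (0.0578%). Among them were those of Cdkn1a, 51 to 32 bases before the upstream start, and of Ccng1, 195 to 176 bases before the start. Both matches needed the 1 mismatch allowed. That setting was chosen after these sequences had been seen, so the share of windows is a description only. Another window of Cdkn1a, before a downstream start (chr17:29093519-29093768, not shown), held GC boxes and no p53 response element. The octamer was held by 1.6% of all windows and by those of Gadd45g and Gadd45a, the latter at 2 places in opposite orientation. The E-box was held by 6.02% of windows and by those of Gadd45b and Gadd45g. The TATA box letters were held by 12.4% of windows and by those of Gadd45b, Gadd45g and Trp53. They lay 46 to 41 bases before the start in Gadd45b and 27 to 22 bases before it in Gadd45g. In Trp53 (not shown) they lay far upstream, 248 to 243 bases before the start, and in reverse orientation. The CCAAT box was held by 33.8% of windows and by those of 6 of the genes. The GC box was held by 32.7% and by those of 5 genes, for Cdkn1a only in the downstream window. The AP-1 site (6.75% of windows), the cyclic AMP response element (1.55%) and the fixed form of the κB site (0.14%) had no match in the windows of these genes. With shares this low, the lack of a match in 9 windows says little, and other forms of the κB site were not searched. These matches describe letters in a window and do not show binding.

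Expression is given as FPKM, fragments counted for a gene divided by its length in kilobases and by library size, so that levels of different genes can be compared. The 16645 genes that averaged 0.1 FPKM or more were compared on log2(FPKM + 0.1) with limma, and p-values were adjusted by Benjamini-Hochberg over all of them. A gene was said to have risen or fallen where the adjusted p was under 0.05, and to be called where the log2 fold change was also at least 1 in either direction, as the study set its thresholds. Single genes were also compared by exact permutation of the 8 livers (two-sided, on FPKM), which cannot give a p below 0.0286 with 4 livers in each group. Reads rebuilt from FPKM and gene length gave 15861245 to 18434488 reads on genes per liver, and each measured value of the 10 genes rested on 15 to 3157 reads. Mettl3 itself had 1.33 ± 0.181 FPKM (SD, n = 4) in METTL3-HKD livers and 1.499 ± 0.282 FPKM (SD, n = 4) in METTL3-Flox livers. Its groups overlapped (log2 fold change −0.16, limma adjusted p = 0.556). The floxed allele of the study is cut by Cre around exon 4, whereas this value counts reads over the whole gene. In addition, 933 of its 5076 exon bases are shared with the antisense gene Tox4. This whole-gene value in whole liver therefore did not check the genotype labels. The study itself reports METTL3 ablation in the liver of METTL3-HKD mice.
The livers also differed in markers of several cell types. The summed level of 8 neutrophil markers was 333 to 1630 FPKM in METTL3-HKD livers and 13.1 to 44.9 FPKM in METTL3-Flox livers, and 8 of 8 rose. METTL3-HKD liver 1 stood apart with 1630 FPKM, against 333 to 549 FPKM in the other METTL3-HKD livers. Of 8 cholangiocyte markers 6 rose (125 to 375 FPKM against 57.4 to 83.5 FPKM), and of 8 Kupffer cell markers 5 fell (89.9 to 187 FPKM against 186 to 464 FPKM). Of 8 hepatocyte markers, which include Alb, 1 fell (Hnf4a), and their high summed level, 25726 to 37152 FPKM against 33201 to 39070 FPKM, was that of liver tissue. The other 7 hepatocyte markers did not pass, but 0 of the 8 had a log2 fold change above 0, and the median was −0.47. Of the endothelial markers 2 of 8 fell, of the stellate cell markers 1 of 8 rose and 2 fell, and none of the 5 tested lymphocyte markers passed in limma (0 also had an unadjusted p under 0.05). No marker of these 7 lists was at 0 in all METTL3-Flox livers. In whole liver, a change in the number of cells of a type and a change in RNA per cell cannot be told apart, and the part of these markers in the results that follow was not tested.

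Of the 10 genes, 8 rose in METTL3-HKD mice by limma, and Gadd45g and Trp53inp1 did not pass. None fell, whether by limma, by voom on rebuilt reads or at an unadjusted p under 0.05 (0 of 10 each). Among all genes tested, 9.05% rose and 6.63% fell. In the same 8 genes the groups did not overlap, with METTL3-HKD higher, a pattern seen in 12.7% of all genes tested, while 9.95% lay below. At the study's thresholds, 4 of the 10 genes were called higher (Gadd45a, Cdkn1a, Gadd45b and Phlda3) and 0 lower, against 4.7% and 1.52% of all genes. Because the genes were chosen with earlier results of these data known, the shares over all genes are a background and no test of enrichment. The log2 fold changes ran from −0.25 to 3.39 with a median of 0.83, against a median of −0.00 over all genes. The 4 called genes had a log2 fold change of at least 1.68, whereas the other risen genes (Zmat3, Mdm2, Ccng1 and Trp53) lay between 0.63 and 0.93.

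**Figure D1:**
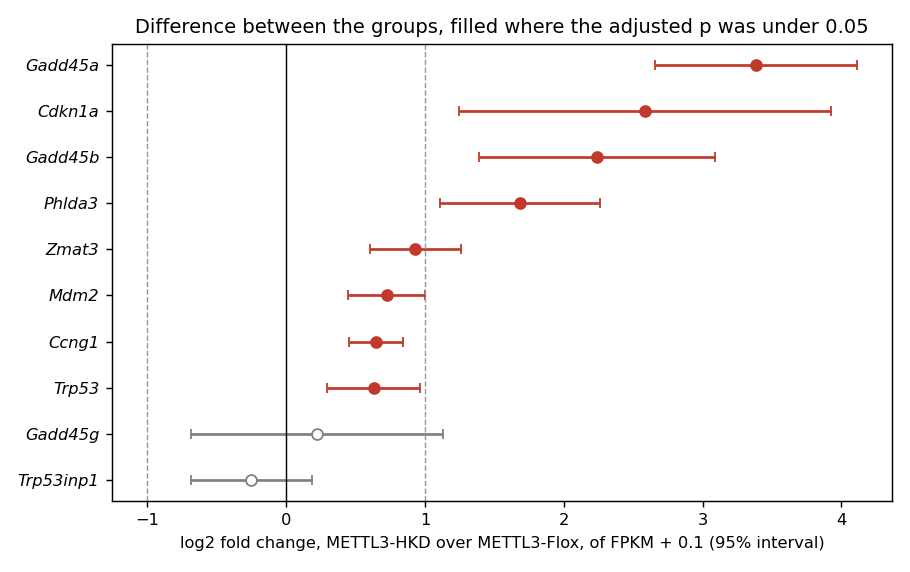
Each point is the log2 fold change of METTL3-HKD over METTL3-Flox livers (4 against 4) on the log2(FPKM + 0.1) scale with its 95% interval from limma, filled where the adjusted p was under 0.05, and dashed lines mark a log2 fold change of 1 in either direction. The 8 filled points lie right of 0, from 0.63 for Trp53 to 3.39 for Gadd45a, and the intervals of Gadd45g and Trp53inp1 include 0.

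Gadd45a (ENSMUSG00000036390), on the minus strand of chromosome 6 from 67035096 to 67037457 (GRCm38), rose most. It had 17.2, 24.9, 7.59 and 11.04 FPKM in livers 1 to 4 of METTL3-HKD mice, against 1.32, 1.02, 1.42 and 1.197 FPKM in those of METTL3-Flox mice. Every METTL3-HKD liver was far above the narrow range of METTL3-Flox livers, and METTL3-HKD livers differed 3.28-fold among themselves. The mean was 15.2 ± 7.59 FPKM in METTL3-HKD and 1.24 ± 0.172 FPKM in METTL3-Flox livers (SD, n = 4 each). On the log2 scale the difference was 3.39 ± 0.32 (SE, limma adjusted p = 0.00157, permutation p = 0.0286), which ranked 93 of the 16645 genes from the most increased. The METTL3-Flox values rested on 29 to 38 reads per liver and those of METTL3-HKD on 242 to 811 reads. The antisense gene E230016M11Rik shares 337 of the 1764 exon bases of Gadd45a, with a mean of 0.082 FPKM.
Gadd45b (ENSMUSG00000015312), on the plus strand of chromosome 10 from 80930073 to 80932204, had 15.7, 20.1, 8.74 and 12.9 FPKM in livers 1 to 4 of METTL3-HKD mice, against 3.37, 1.29, 3.19 and 4.53 FPKM in those of METTL3-Flox mice. The groups did not overlap, and the order of METTL3-HKD livers was that of Gadd45a, with liver 2 highest and liver 3 lowest. Its mean was 14.4 ± 4.75 FPKM in METTL3-HKD and 3.09 ± 1.35 FPKM in METTL3-Flox livers (SD, n = 4 each), with a log2 fold change of 2.24 ± 0.38 (SE, limma adjusted p = 0.00863, permutation p = 0.0286).
Gadd45g (ENSMUSG00000021453), on the plus strand of chromosome 13 from 51846678 to 51848468, was the most abundant of the 10 genes in both groups. It had 99.8, 34.6, 30.6 and 57.8 FPKM in livers 1 to 4 of METTL3-HKD mice, against 70.8, 34.0, 48.6 and 28.3 FPKM in those of METTL3-Flox mice. The ranges overlapped widely, and liver 1 was the highest of each group. Its log2 fold change was 0.22 (95% interval −0.69 to 1.13, limma adjusted p = 0.747, permutation p = 0.6), and the interval thus reached past the fold threshold of 1. Without METTL3-HKD liver 1 the value was −0.11 (limma adjusted p = 0.872).
The make-up of the family was then computed for each liver. Gadd45g made up 75.2%, 43.5%, 65.2% and 70.7% of the summed Gadd45 FPKM in livers 1 to 4 of METTL3-HKD mice, against 93.8%, 93.7%, 91.3% and 83.1% in METTL3-Flox livers 1 to 4. Every METTL3-HKD liver lay below every METTL3-Flox liver (permutation p = 0.0286), and the ratio of Gadd45a to Gadd45b was 0.854 to 1.24 in METTL3-HKD livers and 0.264 to 0.792 in METTL3-Flox livers (permutation p = 0.0286). Both quantities were chosen after the values were seen, and over the 4 derived quantities tested their Benjamini-Hochberg adjusted permutation p was 0.0571, which missed 0.05. That adjustment does not cover the choice. Both quantities also reuse the Gadd45 values given above, so they describe those values and are no separate result. The summed FPKM of the family was 85.2 ± 35.4 (SD, n = 4) against 49.8 ± 19.2 (SD, n = 4), and these groups overlapped (permutation p = 0.114).

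**Figure D2:**
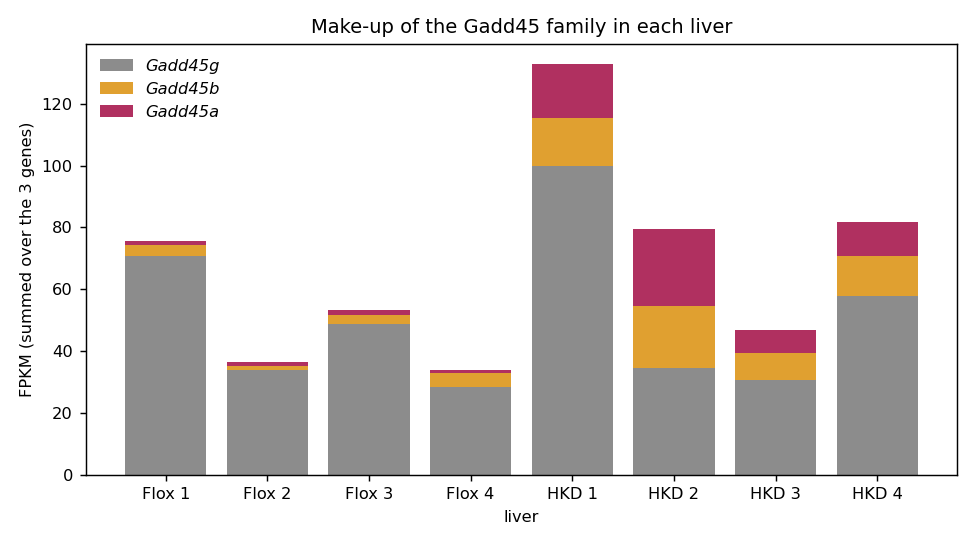
Stacked bars give the FPKM of Gadd45g, Gadd45b and Gadd45a in each of the 8 livers, from 0. Gadd45g fills most of every METTL3-Flox bar (83.1% to 93.8%), while Gadd45a and Gadd45b add a visible share in METTL3-HKD livers, most in liver 2, where Gadd45g made up 43.5%.

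Cdkn1a (ENSMUSG00000023067) encodes p21, the inhibitor of cyclin-dependent kinases (CDKs) through which p53 halts the cell cycle. It lies on the plus strand of chromosome 17 from 29090976 to 29100727. It had 44.2, 30.8, 18.2 and 21.2 FPKM in livers 1 to 4 of METTL3-HKD mice, against 14.1, 1.53, 5.57 and 3.02 FPKM in those of METTL3-Flox mice. The groups did not overlap, although METTL3-Flox liver 1 came within 4.15 FPKM of the lowest METTL3-HKD liver, and METTL3-Flox livers differed 9.17-fold among themselves. The mean was 28.6 ± 11.7 FPKM in METTL3-HKD and 6.05 ± 5.597 FPKM in METTL3-Flox livers (SD, n = 4 each), with a log2 fold change of 2.59 (95% interval 1.25 to 3.93, limma adjusted p = 0.0229, permutation p = 0.0286). The call was lost when METTL3-HKD liver 1 or 2, or METTL3-Flox liver 3 or 4, was left out (adjusted p = 0.0542 to 0.064 from limma). It was kept with both livers numbered 1 left out (log2 fold change 2.90, limma adjusted p = 0.0188). The antisense gene AC167363.2, with a mean of 0.72 FPKM, shares 273 of the 3553 exon bases of Cdkn1a.
Ccng1 (ENSMUSG00000020326), on the minus strand of chromosome 11 from 40748552 to 40755311, encodes cyclin G1, a p53-induced cyclin that directs a phosphatase to Mdm2. It had 20.6, 19.7, 21.4 and 17.8 FPKM in livers 1 to 4 of METTL3-HKD mice, against 12.5, 13.2, 11.9 and 13.1 FPKM in those of METTL3-Flox mice. It was the least variable of the 10 genes in both groups, with the highest liver at 1.2 and 1.11 times the lowest. Its log2 fold change was 0.64 ± 0.09 (SE, limma adjusted p = 0.00412, permutation p = 0.0286), beside 0.63 for Trp53 itself.
The promoter windows of these genes that are shown above held the p53 response element, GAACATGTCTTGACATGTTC in Cdkn1a (upstream start) and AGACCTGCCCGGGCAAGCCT in Ccng1. Each match held 1 mismatch. The log2 fold changes of Cdkn1a and Ccng1 were 2.59 and 0.64, and no relation between an element and the size of a change was tested.

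Trp53 (ENSMUSG00000059552), on the plus strand of chromosome 11 from 69580359 to 69591873, had 6.16, 6.72, 5.30 and 4.93 FPKM in livers 1 to 4 of METTL3-HKD mice, against 3.93, 2.86, 4.15 and 3.89 FPKM in those of METTL3-Flox mice. The groups did not overlap, with a gap of 0.788 FPKM between them. The log2 fold change was 0.63 ± 0.15 (SE, limma adjusted p = 0.0245, permutation p = 0.0286). Among the rises, this one missed the adjusted threshold under the most alternatives. The limma adjusted p was over 0.05 under 5 of 16 alternatives (0.0504 to 0.0788), with the log2 fold change between 0.56 and 0.66 in them. They were the omission of METTL3-HKD liver 1, METTL3-HKD liver 2, METTL3-Flox liver 4 or both livers numbered 1, and a replicate block.
Mdm2 (ENSMUSG00000020184), on the minus strand of chromosome 10 from 117688875 to 117710758, had 13.2, 12.2, 10.2 and 11.3 FPKM in livers 1 to 4 of METTL3-HKD mice, against 8.53, 6.56, 6.32 and 6.89 FPKM in those of METTL3-Flox mice. Every METTL3-HKD liver was above every METTL3-Flox liver, with a log2 fold change of 0.72 ± 0.12 (SE, limma adjusted p = 0.00888, permutation p = 0.0286). The gene of p53 and that of its antagonist rose by 0.63 and 0.72 on the log2 scale, and the ratio of Mdm2 to Trp53 FPKM was 2.04 ± 0.215 (SD, n = 4) against 1.94 ± 0.355 (SD, n = 4), which overlapped (permutation p = 0.6). These are mRNA levels, and p53 is controlled mainly as a protein, which RNA sequencing does not measure.

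Phlda3 (ENSMUSG00000041801) encodes a p53-induced protein that restrains AKT, and lies on the plus strand of chromosome 1 from 135766119 to 135769136. It had 4.08, 2.71, 2.95 and 2.73 FPKM in livers 1 to 4 of METTL3-HKD mice, against 0.677, 0.595, 1.35 and 1.12 FPKM in those of METTL3-Flox mice. Its groups did not overlap, with a log2 fold change of 1.68 ± 0.25 (SE, limma adjusted p = 0.00627, permutation p = 0.0286). METTL3-Flox livers 1 and 2 had 15 reads each for this gene, the fewest of any value reported for the 10 genes.
Zmat3 (ENSMUSG00000027663), on the minus strand of chromosome 3 from 32334792 to 32366014, encodes a p53-induced RNA-binding protein. It had 1.74, 1.98, 1.46 and 1.65 FPKM in livers 1 to 4 of METTL3-HKD mice, against 0.874, 0.947, 0.857 and 0.712 FPKM in those of METTL3-Flox mice. The groups did not overlap, each spanned less than 1.36-fold, and the ratio of their means was 2.01. The log2 fold change was 0.93 (95% interval 0.60 to 1.26, limma adjusted p = 0.0069, permutation p = 0.0286), on the log2(FPKM + 0.1) scale, which understates changes of low genes and left it below the fold threshold. With voom on the rebuilt reads, it was called at 1.01 (limma adjusted p = 0.0049).
Trp53inp1 (ENSMUSG00000028211), on the plus strand of chromosome 4 from 11156431 to 11174379, encodes a stress-induced nuclear protein that promotes p53-dependent arrest and death. It had 11.4, 13.1, 8.78 and 14.002 FPKM in livers 1 to 4 of METTL3-HKD mice, against 13.2, 10.7, 18.6 and 14.03 FPKM in those of METTL3-Flox mice. The groups overlapped, and its log2 fold change was −0.25 (95% interval −0.69 to 0.19, limma adjusted p = 0.409, permutation p = 0.314). The upper bound of this interval lay below the fold changes of each of the 8 genes that rose.

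**Figure D3:**
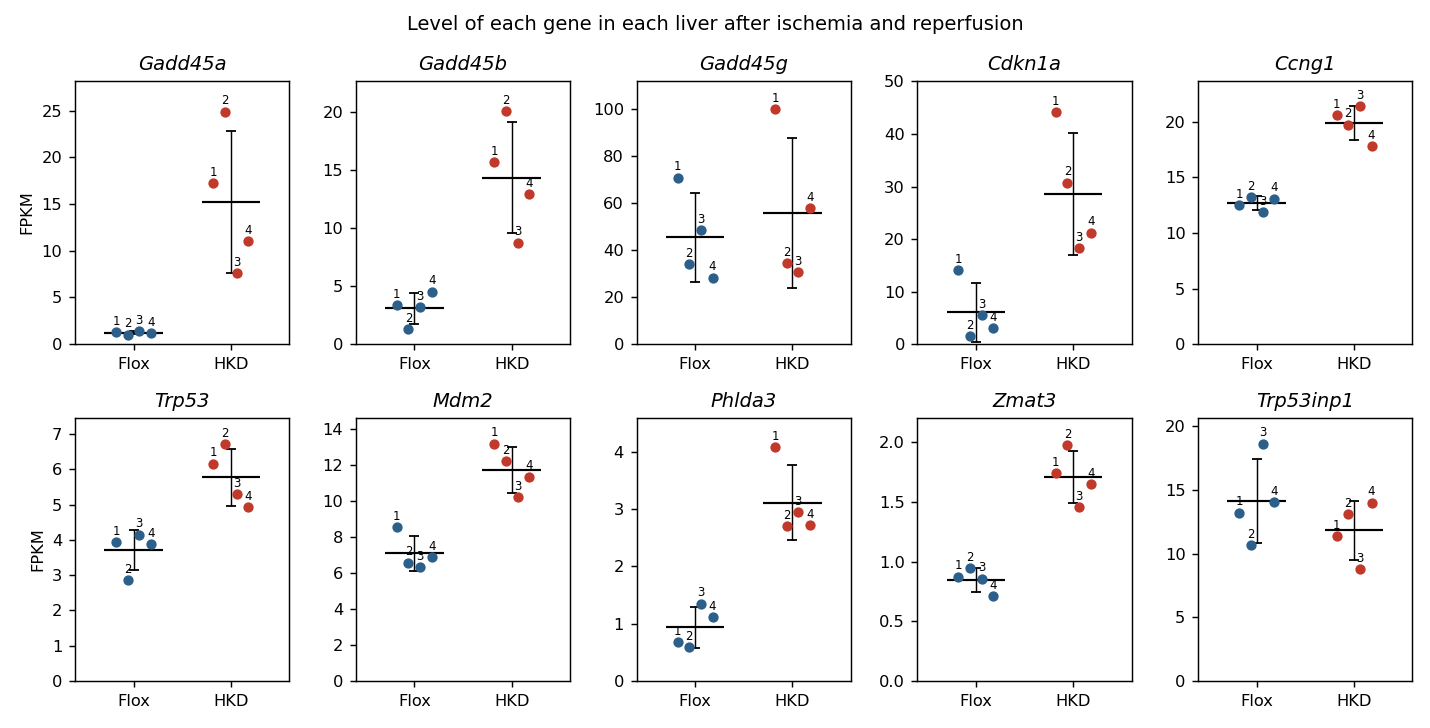
Each panel gives the FPKM of 1 gene (y axis from 0) in 4 METTL3-Flox (blue) and 4 METTL3-HKD (red) livers, with the liver number beside each point and the mean and SD in black. In 8 panels the red points lie above the blue ones, as for Ccng1 (17.8 to 21.4 against 11.9 to 13.2 FPKM), and in the panels of Gadd45g and Trp53inp1 they overlap.

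The livers were not ranked alike by these genes. Within METTL3-HKD, liver 3 had the lowest level for 7 of the 10 genes, while livers 1 and 2 had the highest level for 4 each. Within METTL3-Flox, liver 2 had the lowest level for 6 genes and liver 3 the highest for 4. The same counts over all genes are not given here, so this order may not be particular to these genes. METTL3-HKD liver 1 was above liver 2 for 5 of the genes (Gadd45g, Cdkn1a, Ccng1, Mdm2 and Phlda3) and below it for the other 5. With both livers numbered 1 left out, an alternative added after seeing the data, 4 of the 10 genes were called and 7 rose.

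To place the 10 genes, other genes of the pathway were grouped in lists by function, also with earlier results of these data known. Of 56 other p53-responsive genes 51 were tested, of which 11 (21.6%) rose, 3 fell and 37 did not pass, against 9.05% risen and 6.63% fallen over all genes. In all, 7 (13.7%) were called higher and 0 lower, against 4.7% and 1.52% over all genes, and the median log2 fold change was 0.01, against −0.00 over all genes. With each library rescaled to its reads on genes, which moved the median of all genes from −0.00 to 0.20, 14 rose and 1 fell, or 93.3% of those that passed in place of 78.6%. With a minimum of 1 FPKM 7 rose and 5 fell (58.3%), and under a replicate block 8 rose and 4 fell (66.7%). The list as a whole was thus centred near 0, and the rise lay in a part of its genes.
Among genes of growth arrest and survival, 5 of 15 tested rose and 1 fell. Btg2, an antiproliferative protein, had 26.2 ± 12.9 FPKM in METTL3-HKD and 7.08 ± 3.29 FPKM in METTL3-Flox livers (SD, n = 4 each), with a log2 fold change of 1.88 (limma adjusted p = 0.0157). Ier5, an immediate early gene, had a log2 fold change of 2.18 (limma adjusted p = 0.00797). Plk2, a polo-like kinase, and Gtse1, a binding partner of p53, had 1.37 and 1.23. In the same list Sesn2 rose (log2 fold change 1.00, just under the fold threshold before rounding) and its relative Sesn1 fell (−0.61), both encoding stress-induced sestrins. Apart from these, Plk3, Tigar and Sfn, for instance, had log2 fold changes of 0.63, −0.26 and 0.67 and did not pass.
Among death genes, 4 of 18 tested rose, 1 fell and 13 did not pass, with a median log2 fold change of −0.11. The called genes were those of the receptors Eda2r (1.06 ± 0.305 FPKM against 0.129 ± 0.0715 FPKM, SD, n = 4, log2 fold change 2.37, limma adjusted p = 0.00367) and Tnfrsf10b (log2 fold change 1.2, limma adjusted p = 0.02), both at a low level. Aen, an apoptosis-enhancing nuclease, and Bax, the pore-forming BCL2 family member, rose by log2 fold changes of 0.80 and 0.42. The classical targets Bbc3, Pmaip1, Fas and Perp had log2 fold changes of −0.41, 0.93, −0.12 and −0.11, none with an adjusted p under 0.05, and Ei24 fell (−0.43).
Among DNA repair and metabolic genes, 2 of 18 tested (11.1%) rose and 1 fell, close to the 9.05% and 6.63% over all genes. Abcb1a, an efflux pump, had a log2 fold change of 1.402 (limma adjusted p = 0.0141) and Polk, a translesion polymerase, 0.95 (limma adjusted p = 0.00798), whereas Fdxr, a mitochondrial reductase, fell (−0.72, limma adjusted p = 0.00835). Ddb2, Xpc and Rrm2b had log2 fold changes of −0.53, −0.25 and 0.07 and did not pass. Genes of these and the other lists that are named without being called were picked with their values known.

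Of 20 tested regulators of p53, 1 (5%) rose, 0 fell and 0 were called, which is no more than the 9.05% risen and 6.63% fallen over all genes. The one that rose was Usp7, a deubiquitinase that stabilises Mdm2 (log2 fold change 0.41, limma adjusted p = 0.0308). Mdm4, the relative of Mdm2, had a log2 fold change of −0.25, and the damage kinase genes Atm and Atr had −0.10 and 0.14, none of which passed. The p53 relatives Trp63 and Trp73 were below the minimum of 0.1 FPKM and were not tested. Among 8 tested partners of Gadd45 proteins, 1 rose, Pcna, the sliding clamp of replication (13.1 ± 1.048 FPKM against 9.11 ± 1.10 FPKM, SD, n = 4, log2 fold change 0.52, limma adjusted p = 0.0178). Map3k4, the kinase that Gadd45 proteins activate, had a log2 fold change of −0.30 and did not pass.
Cdkn1a was the only one of the 6 tested CDK inhibitors that rose. Cdkn2c fell (log2 fold change −0.75, limma adjusted p = 0.0447), and Cdkn1b, the gene of p27, had a log2 fold change of −0.04 (95% interval −0.27 to 0.19). Among 16 other growth-arrest genes 2 rose and 1 fell, Gas2. Those that rose were Btg1 (log2 fold change 1.499, limma adjusted p = 0.0113) and its relative Btg2, which was also counted among the p53-responsive genes above. The share of 12.5% risen was near the 9.05% over all genes. Of 11 tested proliferation markers 0 rose, and Ccnb2, a mitotic cyclin, fell from 0.480 ± 0.109 to 0.141 ± 0.0727 FPKM (SD, n = 4, log2 fold change −1.31, limma adjusted p = 0.0269). The other 10 did not pass, and the median log2 fold change of the 11 was −0.52. Values were −0.88 for Top2a, −0.78 for Mki67, −0.61 for Ccna2, −0.57 for Cdc20, −0.52 for Cdk1 and −0.13 for Ccne1. They were 0.78 for Ccnd1, 0.46 for Mcm5, 0.41 for Mcm2 and 0.22 for Ccne2. Top2a, Mki67, Ccna2, Cdc20 and Cdk1 averaged only 0.0736 to 0.202 FPKM in METTL3-HKD and 0.217 to 0.329 FPKM in METTL3-Flox livers. These levels are near the 0.1 FPKM added before the logarithm, which limits what their fold changes show. Ccnb1 was below the minimum of 0.1 FPKM and was not tested (mean 0.0249 FPKM in METTL3-HKD and 0.126 FPKM in METTL3-Flox livers).

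**Figure D4:**
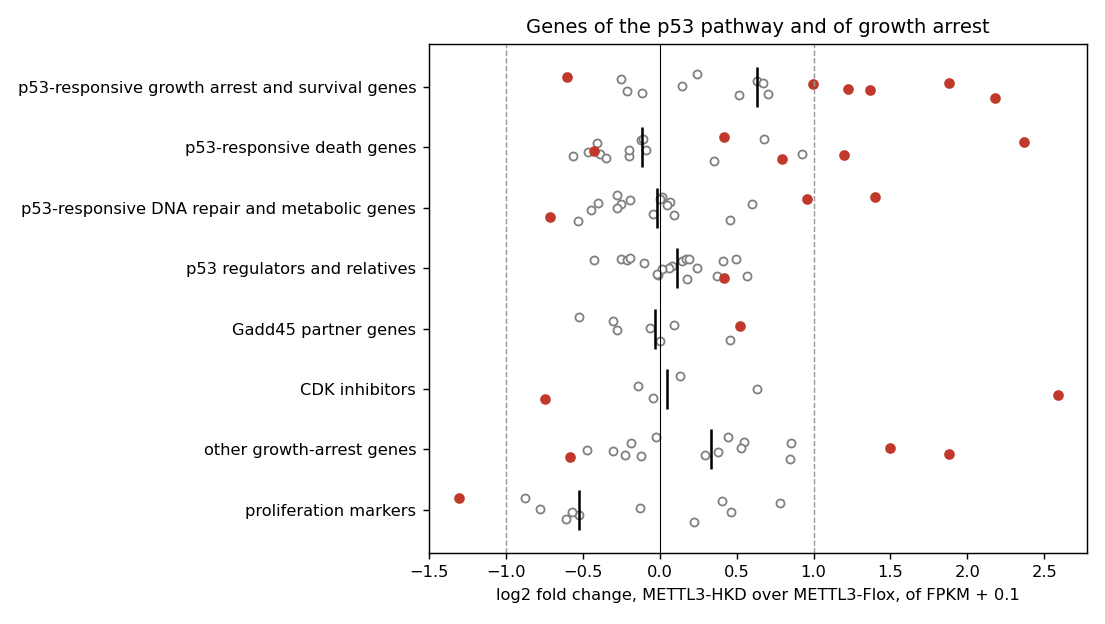
Each point is the log2 fold change (METTL3-HKD over METTL3-Flox, 4 livers each, on the log2(FPKM + 0.1) scale) of 1 tested gene, by list, filled where the adjusted p was under 0.05, with a bar at the list median and dashed lines at 1 in either direction. The list medians lie from −0.52 for proliferation markers to 0.63 for growth arrest and survival genes, and in each p53-responsive list most points are open. A gene that stands in more than 1 list, such as Btg2, has a point in each.

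The genes with the most similar profile over the 8 livers were sought among 9798 protein-coding genes of at least 1 FPKM. Similarity was the root mean square (r.m.s.) difference of log2(FPKM + 0.1) after each gene was centred on its mean, and it includes the difference between groups. Closest to Cdkn1a were Gdf15, Procr and Ifrd1 (r.m.s. difference 0.557 to 0.654), and closest to Gadd45a were Klf6, Prrg4 and Cxcr4 (0.351 to 0.418). Closest to Gadd45b were Tnfrsf12a, Srxn1 and Hsph1 (0.3003 to 0.377), and closest to Gadd45g were Il1r1, Steap4 and Cebpb (0.275 to 0.292). Closest to Mdm2 were Surf6, Rsl1d1 and Nolc1 (0.0532 to 0.0628). Because the measure includes the group difference, these genes have fold changes near that of the gene they are set beside.

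**Figure D5:**
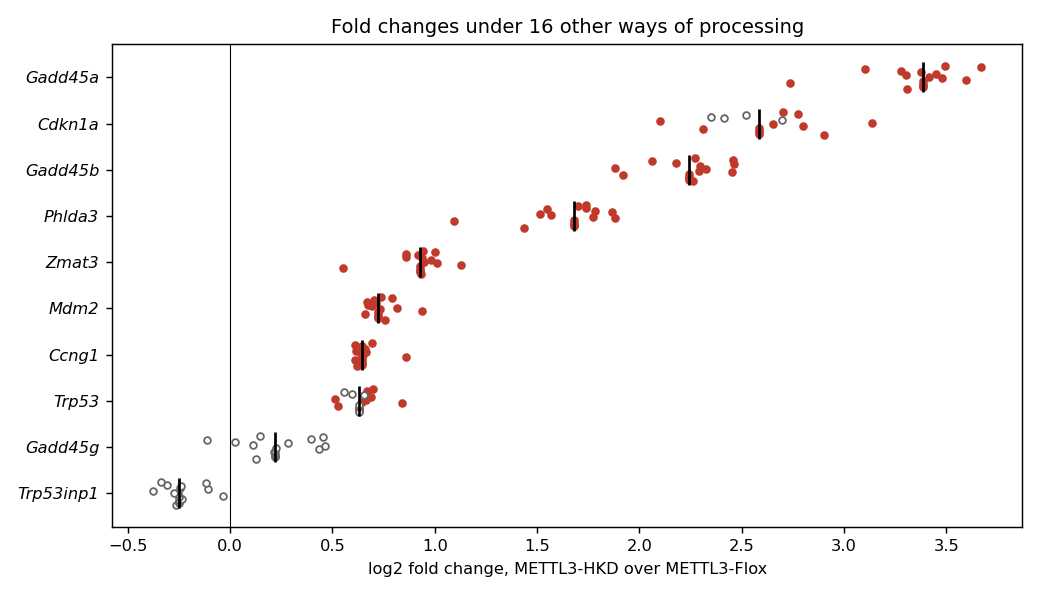
Each dot is the log2 fold change (METTL3-HKD over METTL3-Flox) of a gene under 1 of 16 alternatives, filled where the adjusted p was under 0.05, and the black bar is the value reported. The dots of Gadd45a lie between 2.74 and 3.67, those of Cdkn1a and Trp53 include open ones, and those of Gadd45g fall on both sides of 0.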

How the data were processed

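Liver mRNA of 4 METTL3-HKD and 4 METTL3-Flox mice was sequenced, and the groups were taken from the sample labels. The authors deposited FPKM for 54532 genes with the gene length used for each, on GRCm38 per the labels. The aligner, counting, annotation release and strand setting are not given in the sources used here, so reads of overlapping antisense genes may be mixed. FPKM multiplied by gene length gave whole reads (relative tolerance 0.001) for 100% of non-zero values, and reads on genes were 0.857 to 1.19 times the library size that the FPKM imply, which shows a scaling between libraries. Effective sizes were 18063236 to 20114825 in METTL3-HKD and 14210943 to 16158035 in METTL3-Flox livers. Counting error only is covered by read numbers. No sequencing batch is named.

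Genes averaging 0.1 FPKM or more were compared on log2(FPKM + 0.1) in limma 3.58.1 (lmFit, eBayes with trend) in R 4.3.3, two-sided. The fit was tested on simulated data. Permutation tests enumerated 70 arrangements with scipy 1.17.1. The limma p-values set the group difference against the spread between these livers, moderated over all genes. The permutation p-values place the observed split among the 70 arrangements. The genes and lists were chosen with earlier results of these data known. Named genes were the 10 genes, Mettl3, called genes of each list (at most 8, otherwise the 4 with the smallest adjusted p in each direction), the 3 closest profiles for 5 of the genes, and exceptions marked in the text. Ddit3 has 2 rows in the table, and the row with the higher level was used. Coordinates of 98.26% of the 54409 genes also in GENCODE M21 were the same there.

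The alternatives were a pseudocount of 1 FPKM, a minimum of 1 FPKM, no minimum, a replicate block, no trend, scaling to reads on genes, voom on rebuilt reads and the omission of each liver. The omission of both livers numbered 1 was added after seeing the data.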

Additional observations from a re-analysis of the deposited data

How the results depend on the processing

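Among the 10 genes, the direction was kept under each of the 16 alternatives for all except Gadd45g, which turned to −0.11 (log2, limma adjusted p = 0.872) without METTL3-HKD liver 1 (−0.11 to 0.46 with 1 liver left out). Gadd45a (2.74 to 3.67), Gadd45b (1.88 to 2.46), Mdm2 (0.66 to 0.94), Ccng1 (0.61 to 0.86), Zmat3 (0.55 to 1.13) and Phlda3 (1.10 to 1.88) stayed past the adjusted threshold under all 16. Trp53 lost it with a replicate block (log2 fold change 0.63, limma adjusted p = 0.0714) and with both livers numbered 1 left out (0.63, adjusted p = 0.0788). With 1 liver left out, the log2 fold change was 0.51 to 0.70 for Trp53 and 2.10 to 3.14 for Cdkn1a, and the omissions that took either gene past an adjusted p of 0.05 are named in the report. The cause was not tested. The number of the 10 genes called was 3 to 4, and of those that rose 6 to 8, with 1 liver left out. Of the other p53-responsive genes, 7 were called higher, but 3 with a pseudocount of 1 FPKM, 3 with a minimum of 1 FPKM (which tests fewer genes), 11 with rescaling to reads on genes, and 6 to 9 with 1 liver left out. Of all genes, 782 were called higher and 253 lower. These counts were 317 and 88 with a pseudocount of 1 FPKM, 450 higher with a minimum of 1 FPKM, 163 lower with no minimum, 133 lower with rescaling, 464 and 155 with both livers numbered 1 left out, and 492 to 960 higher and 94 to 341 lower with 1 liver left out. With rescaling, 88.7% of calls were higher, against 75.6%.

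Replicate numbers are shared by the groups but nothing in the labels ties livers of a number, and deviations of same-numbered livers correlated at 0.0711, −0.0838, −0.0134 and −0.0339 over genes. Under the replicate block, 616 genes were called higher and 200 lower, 4 of the 10 genes were called and 7 rose, and of the 10 genes only Trp53 moved to the other side of the adjusted threshold. Low read numbers for Phlda3 (15 to 32) and Gadd45a (29 to 38) in METTL3-Flox livers limit the precision of those folds.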

Other observations

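The letters GGACT, the most common form of the m6A consensus, were counted in the longest protein-coding transcript (GENCODE M21) of each of the 10 genes, as a description of sequence and not of methylation, which was not measured here. Over 13091 protein-coding genes tested, the median was 1.054 per kilobase and the quartiles were 0.64 and 1.53. Gadd45g had the densest sequence of the 10 genes, with 4 in 1071 bases (3.73 per kilobase), and 99.4% of genes had as many or fewer. Gadd45b followed with 3 in 1284 bases (2.34 per kilobase) and Cdkn1a with 4 in 2080 bases (1.92 per kilobase). Gadd45a had 1 in 1223 bases (0.818 per kilobase), and Trp53 had 0 in 1867 bases. The other 5 genes lay between 0.370 and 1.39 per kilobase. No relation between this count and the change in level was tested.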
